A study of Mus musculus with 12 samples.

Results

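Regulatory T cells (Tregs) carrying 1 of a pair of insulin-specific T cell receptors (TCRs), 4-8 or 12-4.4m1, were compared inside the pancreatic islets. The comparison rested on 6 libraries of the 12 in the series, chosen by their labelled tissue: 3 islet libraries of 4-8 and 3 of 12-4.4m1. All 12 came from Tregs of NOD mice, the inbred strain that develops autoimmune diabetes, at 6.8 weeks of age. The mice were two-TCR retrogenic animals, in which blood cells grow from bone marrow given receptor genes by a virus. The series pairs high affinity with 4-8 and low affinity with 12-4.4m1, and the remaining 6 libraries were from the spleens of such mice. Each affinity was represented by a single receptor, so affinity cannot be told apart from the other properties of these receptors. The labels do not tie libraries to mice, so the tests measure only library to library spread, which may be technical. The host strain of the marrow, the promoter of the receptor genes and the sorting markers were not given in the sources used here.

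Tregs are CD4 T cells that depend on the transcription factor Foxp3 and hold other immune cells in check through inhibitory receptors, secreted cytokines and competition for growth factors. In islets they meet antigen-presenting cells that display insulin peptides, and signals through the TCR change which of these tools a Treg makes. Besides restraining immunity, tissue Tregs secrete growth factors for epithelium and, in some settings, chemokines and cytokines better known from effector T cells.

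Values were regularized log (rlog) values on a log2 scale, and 8212 genes with a mean normalized count of at least 10 were tested with limma. Differences are 4-8 minus 12-4.4m1 throughout, and a gene passed at a Benjamini-Hochberg adjusted p of 0.05. Of these genes, 30 passed, 0.365% of those tested. They comprised 21 higher in 4-8 (0.256%) and 9 lower (0.110%). Without adjustment, 310 genes were higher (3.77%) and 247 lower (3.01%) at a p of 0.05. The median difference over all genes tested was -0.0040, and the median standard error (SE) was 0.193. The 3 libraries of each group did not overlap for 978 genes (11.9%), which included 29 of the 30 that passed, all except Il10. The authors' deposited DESeq2 table called 29 genes in this comparison (0.353%), of which 22 were among the 30, Nkg7 at an adjusted p of 0.0444. The 8 it did not call included Cxcl10, Plek and Il1rl1, described below. The others were Ccr4 (DESeq2 adjusted p = 0.155), Tnip3 (0.0996), Chchd10 (0.134), Phlpp1 (0.05015) and Tiam1 (0.0881). The authors' deposited Cuffdiff table called 57 genes (0.928% of those it tested), again with 22 of the 30, and 18 genes were called by all 3.

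**Figure D1:**
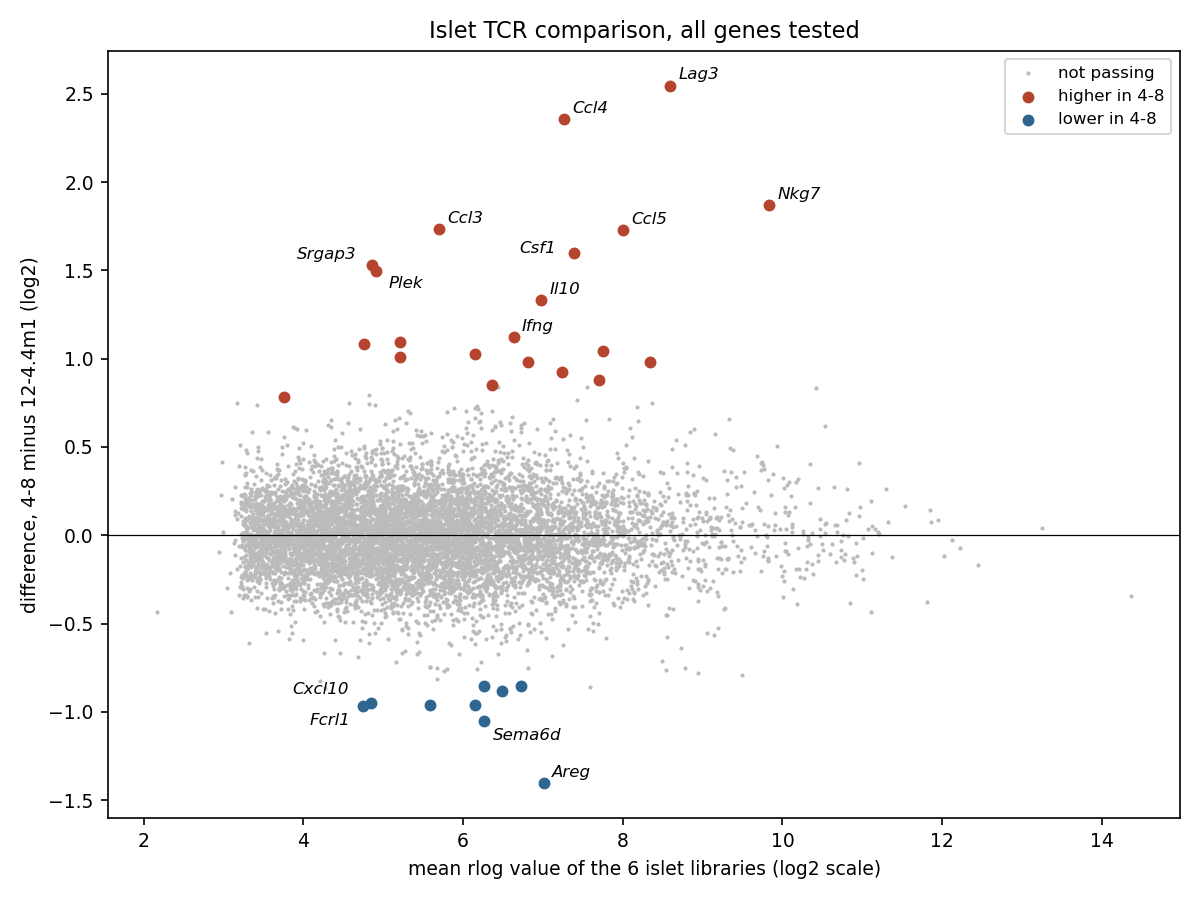
Difference between 4-8 and 12-4.4m1 (vertical axis, log2) against the mean rlog value of the 6 islet libraries (horizontal axis, log2 scale) for the 8212 genes tested, 1 point per gene. The 21 genes that passed higher in 4-8 reach 2.55 (Lag3), and the 9 that passed lower reach -1.40 (Areg).

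The cells carried the transcripts that define Tregs at levels that did not differ detectably between the receptors. Foxp3 had rlog values of 9.02, 9.38 and 9.04 in 4-8 replicates 1, 2 and 3 and 9.22, 8.95 and 9.27 in those of 12-4.4m1. The groups overlapped, and the difference of -0.0050 had a 95% interval from -0.38 to 0.37. Ctla4, an inhibitory receptor that Tregs hold constitutively, differed by 0.18 (interval -0.18 to 0.54), and Cd4 by -0.033 (-0.41 to 0.35). Il2ra, the high affinity chain of the interleukin-2 receptor, differed by 0.42 (-0.03 to 0.86). Among 19 tested genes of Treg identity 0 passed by limma. Their median was 0.18 (-0.077 within libraries titled R and 0.20 within those titled Treg, 2 styles described below). Of these 19, 3 were higher and 1 lower at an unadjusted p of 0.05, against 3.77% and 3.01% of all genes tested. The authors' DESeq2 and Cuffdiff tables called 0 of them too. The lower one was Nrp1, a co-receptor of semaphorins (-0.67 ± 0.21 SE, adjusted p = 0.305).

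Most markers of other cell types were below the filter in these libraries, though many had some counts. Mean normalized counts were 0 for 2 of 18 myeloid, 4 of 12 dendritic cell, 9 of 17 islet endocrine and 5 of 14 endothelial and stromal markers. Of the 11 B cell markers listed, 8 had values here (not Ighm, Ighd or Igkc). Of these 8, 0 reached the filter, and their mean normalized counts summed to 2.39. The 2 CD8 T cell markers, the 17 islet endocrine markers and the 6 erythrocyte markers were below it as well. Cd8a and the natural killer cell receptor Ncr1 had mean normalized counts of 0, while the CD8 chain Cd8b1 had an FPKM (a level per transcript length, 1 value a group in the authors' Cuffdiff table) of 0.836 in 4-8 and 10.8 in 12-4.4m1. The islet endocrine markers summed to an FPKM of 7.33 and 40.9. Of 18 myeloid markers 2 were tested (Cebpb and Ctss), of 12 dendritic cell markers 3 (Cd74, H2-Eb1 and H2-Aa), of 8 natural killer cell markers 1 (Eomes, with a summed FPKM of the 8 of 26.5 and 6.71) and of 14 endothelial and stromal markers 1. The 12 dendritic cell markers summed to an FPKM of 628.2 in 4-8 and 476.5 in 12-4.4m1, with Cd74 alone at 572.5 and 428.6. Of these 12, FPKM was higher in 4-8 for 5, lower for 3 and 0 in both groups for 4. By number above the filter, pancreatic acinar markers were the exception, with 15 of 26 tested. Their mean rlog value ran from 3.98 to 4.39 over the 4-8 libraries and from 4.33 to 4.50 over those of 12-4.4m1, and their summed FPKM was 456 and 694. The median difference of acinar markers was -0.18 (0.0024 within R and -0.49 within Treg). By limma 0 of them passed, and 0 were called in the authors' DESeq2 and Cuffdiff tables. Of the 15, 0 were higher and 2 lower (Pnlip and Cel) at an unadjusted p of 0.05, against 3.77% and 3.01% of all genes tested.

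The islet libraries carried titles in 2 styles, one with R (4-8 replicates 1 and 3, 12-4.4m1 replicate 3) and one with Treg (4-8 replicate 2, 12-4.4m1 replicates 1 and 2). What the style stands for is not given in the sources used here. With the style as a term in the fit, 60 genes passed for the style itself (0.731%), 27 higher and 33 lower in libraries titled Treg. The first by p was Xist, the RNA of the inactive X chromosome, with values of 6.51, 10.48 and 7.50 in 4-8 replicates 1, 2 and 3 and 9.39, 9.98 and 7.42 in those of 12-4.4m1. The Y-linked gene Ddx3y ran the other way, at 7.14, 5.33 and 6.86 against 6.55, 6.04 and 7.07. Ribosomal precursor RNA (Rn45s) was 13.67, 15.12 and 13.79 against 14.82, 14.93 and 13.86. In each of these 3 genes the Treg-titled libraries lay on one side and the R-titled ones on the other. All 30 genes of the TCR comparison passed in the fit that held the style, and 2 of them, Ccl5 and Il10, also passed for the style. Differences within each style are given below for the leading genes, as within R (2 libraries of 4-8 against 1) and within Treg (1 against 2), and they have no test.

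**Figure D2:**
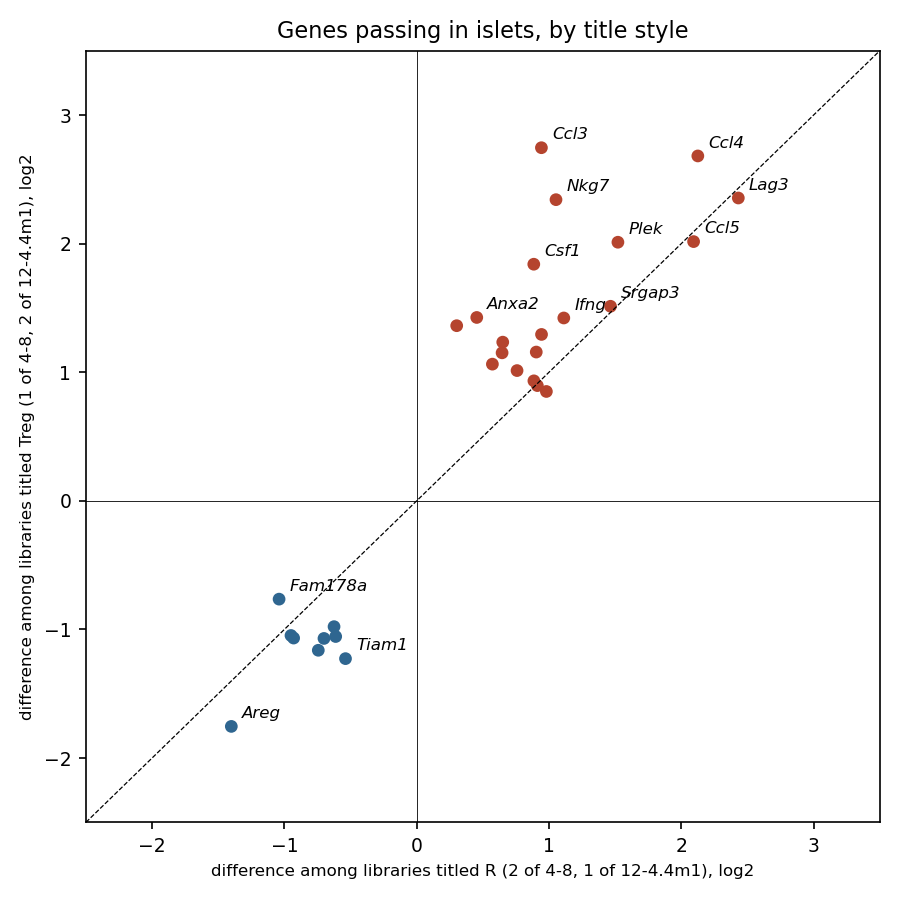
Difference between 4-8 and 12-4.4m1 among the R-titled libraries (horizontal axis, log2) and among the Treg-titled libraries (vertical axis, log2) for 29 of the 30 genes that passed, with the dashed line marking equal values. Lag3 lies on the line (2.43 and 2.36), while Ccl3 (0.94 and 2.75) and Nkg7 (1.05 and 2.34) lie above it.

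Among inhibitory receptors, the comparison turned on Lag3, which binds MHC class II and dampens T cell activation. Lag3 had rlog values of 9.72, 9.53 and 10.33 in 4-8 replicates 1, 2 and 3 and 7.09, 7.26 and 7.60 in those of 12-4.4m1. The lowest 4-8 library lay well above the highest of 12-4.4m1, and the groups did not overlap. The difference was 2.55 ± 0.21 SE (limma adjusted p = 3.16e-09), 2.43 within R and 2.36 within Treg, and it stayed between 2.31 and 2.71 with any 1 library left out. Per length, the authors' Cuffdiff table gave Lag3 an FPKM of 653 in 4-8 and 68.9 in 12-4.4m1. The gene lies on chromosome 6 at 124904361 to 124911705 of GRCm38. In bulk samples more expressing cells and more RNA per cell cannot be told apart.

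Lag3 was the single passing member of the 14 tested co-inhibitory receptors (median 0.29). At an unadjusted p of 0.05, 4 of these receptors were higher and 0 lower, against 3.77% and 3.01% of all genes tested. The other 3 of those 4 missed the adjusted threshold by limma. Tigit, which competes with Cd226 for ligands on antigen-presenting cells, had values of 8.75, 8.63 and 8.84 in 4-8 and 7.82, 7.97 and 8.17 in 12-4.4m1, without overlap. Its difference was 0.75 ± 0.19 SE (adjusted p = 0.0829), and it was called in the authors' DESeq2 table (adjusted p = 0.0185) and in their Cuffdiff table (q = 0.00991). Entpd1, the ATP-degrading enzyme CD39, differed by 0.66 ± 0.21 SE (adjusted p = 0.284), and the authors' Cuffdiff table called it (q = 0.0485). Pdcd1, the receptor PD-1, differed by 0.55 ± 0.20 SE (adjusted p = 0.411). Havcr2, known as Tim-3, differed by 0.40 with a 95% interval from -0.09 to 0.90.

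Of the chemokine ligands, Ccl4, Ccl3 and Ccl5 rose. Ccl4, which draws T cells and myeloid cells, had values of 8.20, 8.72 and 8.40 in 4-8 and 6.45, 5.63 and 6.17 in 12-4.4m1. Every 4-8 library exceeded every 12-4.4m1 library, with a difference of 2.36 ± 0.21 SE (limma adjusted p = 1.86e-08), 2.13 within R and 2.68 within Treg. Ccl3 had 6.42, 7.39 and 5.88 in 4-8 and 4.68, 4.59 and 5.21 in 12-4.4m1. Its 4-8 libraries spread more widely than those of Ccl4, with the Treg-titled replicate 2 on top. The difference of Ccl3 was 1.73 ± 0.26 SE (adjusted p = 0.000260), 0.94 within R and 2.75 within Treg, and it ran from 1.32 to 2.07 with 1 library left out. It did not pass in the R-titled libraries alone (adjusted p = 0.130, with 1 library of 12-4.4m1 assumed to vary like the 4-8 libraries).

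Ccl5 had 8.14, 9.49 and 8.97 in 4-8 and 7.41, 7.55 and 6.46 in 12-4.4m1. The libraries did not overlap, but in each group those titled Treg were higher than those titled R. The difference of 1.73 ± 0.26 SE (limma adjusted p = 0.000334) was 2.09 within R and 2.02 within Treg. Robust variance estimation gave Ccl5 an adjusted p of 0.130. Per length, FPKM in 4-8 and 12-4.4m1 was 1056 and 100.2 for Ccl4, 279.6 and 25.1 for Ccl3, and 1989 and 381 for Ccl5. These 3 genes lie on chromosome 11, Ccl3 at 83647844 to 83649355 and Ccl4 at 83662584 to 83664683, with Ccl5 at 83525778 to 83530518.

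Cxcl10, the interferon-induced ligand of Cxcr3, went the other way. Its values were 4.68, 4.23 and 4.22 in 4-8 and 5.33, 5.45 and 5.20 in 12-4.4m1, without overlap, a difference of -0.95 ± 0.19 SE (limma adjusted p = 0.0133). Cxcl10 lost the call without 12-4.4m1 replicate 1 (adjusted p = 0.102) or 2 (0.169) and without 4-8 replicate 2 (0.0653) or 3 (0.0865), and the authors' DESeq2 table did not call it (adjusted p = 0.102). Macrophages also make this chemokine. C1qa, a myeloid marker below the filter, had FPKM of 0 and 16.7 and was called lower in 4-8 by the authors' Cuffdiff table (q = 0.00991). Of 18 myeloid markers, FPKM was lower in 4-8 for 11, C1qa included, and higher for 4, among them C1qb (8.17 and 4.30), while 2 were at 0 in both groups and 1 had no value. Their summed FPKM was 330 and 350, or 59.1 and 74.8 without Ctss, the mean rlog of the 2 tested ran from 6.19 to 6.34 and from 6.23 to 6.49, and 2 of the 18 had no counts. Their part in the Cxcl10 result was not tested. In all, 3 of 6 tested chemokine ligands rose and 1 fell, against 0.365% of all genes tested. The other two were Ccl1 (-0.51, adjusted p = 0.683) and Xcl1 (0.05, 95% interval -0.40 to 0.50).

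Receptors for chemokines and migration had a median of -0.15 over 26 tested, with 1 passing. Ccr4, the receptor for Ccl17 and Ccl22, had 6.03, 5.70 and 5.29 in 4-8 and 6.64, 6.91 and 6.36 in 12-4.4m1. All 3 of the 4-8 libraries were below those of 12-4.4m1, by 0.96 on average (-0.96 ± 0.21 SE, limma adjusted p = 0.0301). The call was lost without 12-4.4m1 replicate 1 (adjusted p = 0.207) or 2 (0.350) or 4-8 replicate 3 (0.264). At an unadjusted p of 0.05, 4 of the 26 were higher and 6 lower, against 3.77% and 3.01% of all genes tested. The lower ones included, besides Ccr4, Ccr6 (-0.55 ± 0.18 SE, adjusted p = 0.305), the Ccl20 receptor, and Gpr183 (-0.58 ± 0.19 SE, adjusted p = 0.317), which reads oxysterols. Cxcr3, the receptor of Cxcl10, differed by -0.50 ± 0.20 SE (adjusted p = 0.525). Ccr8, a receptor frequent on tissue Tregs, differed by -0.087 (95% interval -0.50 to 0.33).

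Of the genes of cytotoxic granules, Nkg7 and Cst7 rose. Nkg7, a membrane protein of these granules, had 10.56, 10.85 and 10.88 in 4-8 and 8.55, 8.47 and 9.67 in 12-4.4m1. The R-titled 12-4.4m1 replicate 3 stood above the other two of its group but below every 4-8 library. The difference was 1.87 ± 0.23 SE (limma adjusted p = 9.83e-06), 1.05 within R and 2.34 within Treg, at an FPKM of 3342 and 752. Cst7, which encodes cystatin F, an inhibitor of granule proteases, had 7.72, 7.65 and 7.73 against 6.57, 6.61 and 7.15 without overlap (0.92 ± 0.20 SE, adjusted p = 0.0247). Cst7 lost its call without 12-4.4m1 replicate 1 (adjusted p = 0.247) or 2 (0.286) and without 4-8 replicate 1 (0.151) or 3 (0.0739).

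Of the 18 tested genes of granules and killing, these 2 passed, while 0.256% of all genes tested passed higher. At an unadjusted p of 0.05, 10 of the 18 were higher and 0 lower, against 3.77% and 3.01% of all genes tested. The list's median was 0.41 (0.27 within R and 0.42 within Treg). The next by p were Ctsd, a lysosomal protease (0.65 ± 0.19 SE, adjusted p = 0.249; q = 0.0181 in the authors' Cuffdiff table), and Fasl, the death ligand (0.75 ± 0.23 SE, adjusted p = 0.284). Gzmb, a granule protease of killer cells that Tregs can also make, differed by 0.54 ± 0.22 SE (adjusted p = 0.585) at an FPKM of 444.5 and 256.5, which the authors' Cuffdiff table called (q = 0.0243). Prf1, the pore former, and Gzma were below the filter, with FPKM of 1.81 and 0.132 for Prf1 and 0 and 3.60 for Gzma. Natural killer cells express granule genes, Ccl3, Ccl4, Ccl5 and Ifng too. FPKM was higher in 4-8 for 6 of the 8 markers of these cells, lower for 0 and at 0 in both groups for Ncr1 and Klra4. The largest gap was that of Klre1 (12.8 and 0, below the filter), while Eomes, the tested one, had 5.91 and 5.32 (rlog 3.79 to 4.61 in 4-8 and 3.85 to 4.43 in 12-4.4m1). Among killer cell lectin-like receptors of the granule and killing list, Klrd1 differed by 0.51 ± 0.17 SE (adjusted p = 0.359) at an FPKM of 30.2 and 3.30. Klrc1 (4.45 and 0) and Klrk1 (1.64 and 0) were below the filter. The part of natural killer cells in the granule, chemokine and Ifng results was not tested.

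The start regions of some leading genes are shown for readers who wish to set sequence beside expression. RefSeq's table of starts (GRCm38.p6) held 24 of the 30 genes that passed, and Lag3, Ccl4, Ccl5, Fam178a and Il10 are named only. The 250 bases before the start were searched on both strands for 6 sets of letters: TGANTCA (AP-1), GGNNTTTCC (kB-like), GGAAAA (NFAT core), TCACACC (T-box), TGNGGT (RUNX) and TTCNNNGAA (STAT). These were chosen with the results known, a match is a description and not a site, and matches of different sets may overlap. Nkg7, Ccl3 and Pglyrp1 are printed as a granule gene, a chemokine and a secreted granule protein that were higher in 4-8. Capitals mark every match. The windows are chr7:43436888-43437137 (plus strand), chr11:83649379-83649628 (minus strand) and chr7:18884440-18884689 (plus strand).
Nkg7: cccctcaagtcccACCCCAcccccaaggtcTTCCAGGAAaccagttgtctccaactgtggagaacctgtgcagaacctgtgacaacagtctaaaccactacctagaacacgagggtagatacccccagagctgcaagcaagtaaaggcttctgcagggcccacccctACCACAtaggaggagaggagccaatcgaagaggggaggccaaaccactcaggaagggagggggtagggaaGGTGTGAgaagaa
Ccl3: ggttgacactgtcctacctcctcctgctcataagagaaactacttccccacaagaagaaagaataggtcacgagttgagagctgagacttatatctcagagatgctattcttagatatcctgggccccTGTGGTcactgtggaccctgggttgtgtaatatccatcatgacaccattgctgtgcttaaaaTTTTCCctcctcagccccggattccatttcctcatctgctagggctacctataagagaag
Pglyrp1: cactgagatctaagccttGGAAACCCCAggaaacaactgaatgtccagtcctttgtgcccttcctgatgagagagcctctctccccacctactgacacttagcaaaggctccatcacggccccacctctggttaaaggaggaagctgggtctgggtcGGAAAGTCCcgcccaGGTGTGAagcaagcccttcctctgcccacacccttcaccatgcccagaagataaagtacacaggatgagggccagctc
The T-box letters, on the minus strand, were in Nkg7 and Pglyrp1, 2 of the 16 higher and 0 of the 8 lower genes with a window, against 2.70% of 6377 tested genes and 3.31% of all 27025 windows. The kB-like letters were in 3 of 16 higher genes (Csf1, Tnip3 and Pglyrp1) and 2 of 8 lower ones (Fcrl1 and Cxcl10), against 5.32% of tested genes and 4.84% of all windows. The STAT letters were in 3 of 16 (Nkg7, Ifng and Il12rb2) and 0 of 8, against 6.05% and 7.18%. The short NFAT core was in 3 of 16 and 1 of 8 against 18.5% and 20.6%, and the RUNX letters in 8 of 16 and 1 of 8 against 37.3% and 39.9%.

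Secreted cytokines and factors moved in both directions (22 tested, median 0.023). Of these, 5 passed higher and 1 lower, against 0.256% and 0.110% of all genes tested. Csf1, the growth factor of macrophages, had 8.18, 8.03 and 8.34 in 4-8 and 6.19, 6.20 and 7.38 in 12-4.4m1. The groups did not overlap, and 12-4.4m1 replicate 3 again stood above the other two. The difference was 1.60 ± 0.24 SE (limma adjusted p = 0.000260), 0.89 within R and 1.84 within Treg, and it did not pass in the R-titled libraries alone (adjusted p = 0.126). Areg encodes amphiregulin, an epithelial growth factor through which Tregs are known to aid tissue repair. It had 6.35, 5.84 and 6.74 in 4-8 and 7.50, 7.70 and 7.95 in 12-4.4m1, without overlap. The difference was -1.40 ± 0.21 SE (adjusted p = 0.000334), -1.40 within R and -1.75 within Treg, at an FPKM of 61.3 and 258. Areg kept its call whichever of the 6 libraries was left out, at -1.62 to -1.17.

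Ifng, the macrophage-activating cytokine of type 1 responses, had 6.95, 7.59 and 7.04 in 4-8 and 6.42, 5.92 and 5.88 in 12-4.4m1. No 12-4.4m1 library reached a 4-8 library, and the difference was 1.12 ± 0.21 SE (limma adjusted p = 0.00651). It was lost without 12-4.4m1 replicate 2 (adjusted p = 0.149). Il10, the cytokine that quiets antigen-presenting cells, had 7.94, 6.79 and 8.20 in 4-8 and 5.88, 5.90 and 7.16 in 12-4.4m1. Here the groups overlapped, since 12-4.4m1 replicate 3 exceeded 4-8 replicate 2, and in each group the R-titled libraries were the higher ones. The difference of Il10 was 1.33 ± 0.29 SE (adjusted p = 0.0301), 0.91 within R and 0.90 within Treg, and its difference for title style was -1.28 (adjusted p = 2.17e-05). Il10 passed in 2 of 6 fits with 1 library left out, and its adjusted p was 0.358 without 12-4.4m1 replicate 1, 0.475 without replicate 2, 0.211 without 4-8 replicate 1 and 0.196 without replicate 3. Robust estimation gave an adjusted p of 0.660, and the authors' DESeq2 table called Il10 at 0.00226.

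Pglyrp1, an antibacterial protein that binds peptidoglycan, had 8.17, 8.02 and 8.61 against 7.14, 7.03 and 7.51, without overlap (1.04 ± 0.20 SE, limma adjusted p = 0.00874). Its call was lost without 12-4.4m1 replicate 1 (adjusted p = 0.109) or 2 (0.193) or 4-8 replicate 3 (0.0778). Spp1 encodes osteopontin, a matrix protein and cytokine. Its values of 3.88, 4.44 and 4.13 against 3.52, 3.35 and 3.24 did not overlap (0.78 ± 0.18 SE, adjusted p = 0.0365), at an FPKM of 28.4 and 2.56. Spp1 was called in the authors' DESeq2 table (adjusted p = 0.0374) and not in their Cuffdiff table (q = 0.491). It passed in 1 of 6 fits with 1 library left out, losing the call without 12-4.4m1 replicate 1 (0.102), 2 (0.234) or 3 (0.114) or 4-8 replicate 2 (0.175) or 3 (0.082). Myeloid cells make osteopontin too. Of their 18 markers, 4 had a higher FPKM in 4-8 (Cd68 with 9.06 and 0.612, Itgam with 3.28 and 0.639, C1qb and Tyrobp) and 11 a lower one, with sums of 330 and 350. Their part in the Spp1 result was not tested. Ebi3, a subunit shared by the cytokines IL-27 and IL-35, did not pass by limma (-0.76 ± 0.19 SE, adjusted p = 0.0863), was called in the authors' Cuffdiff table (q = 0.0243) and not in their DESeq2 table (adjusted p = 0.234). Its values of 5.49, 5.36 and 5.44 in 4-8 lay below those of 6.09, 6.36 and 6.10 in 12-4.4m1.

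**Figure D3:**
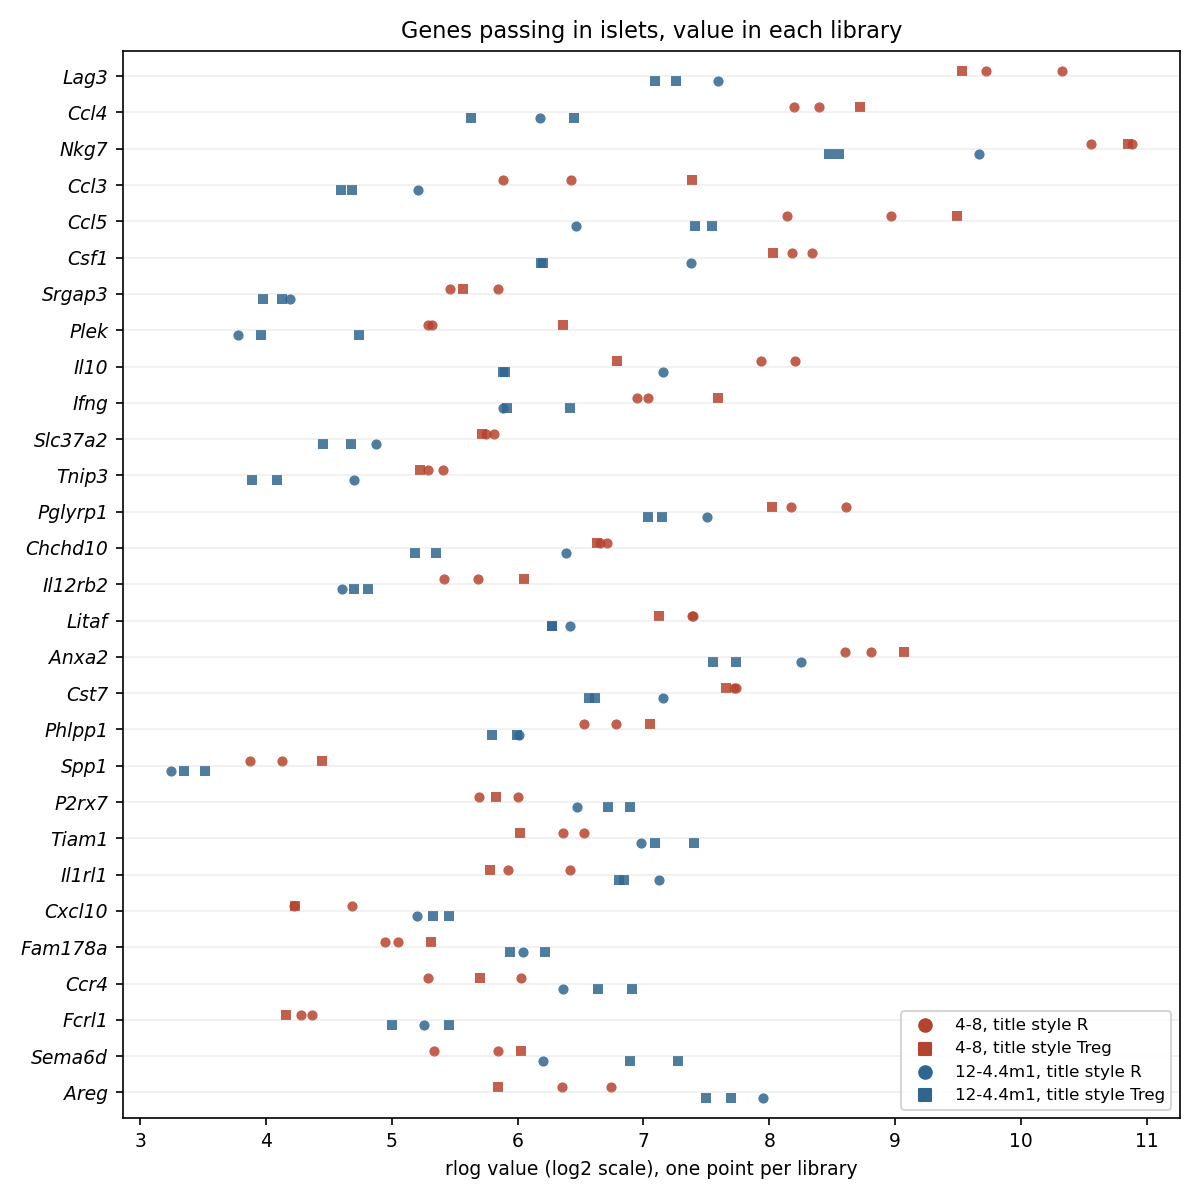
The rlog value (horizontal axis, log2 scale) of 29 of the 30 genes that passed, in each of the 6 islet libraries, ordered by the difference. Red is 4-8, blue is 12-4.4m1, circles are libraries titled R and squares those titled Treg, and the groups are separate for every gene shown except Il10.

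Among 25 tested cytokine receptors, 1 passed in each direction, against 0.256% higher and 0.110% lower of all genes tested. Il12rb2, the chain that lets T cells respond to interleukin-12, had 5.41, 6.05 and 5.68 in 4-8 and 4.70, 4.81 and 4.60 in 12-4.4m1, without overlap (1.01 ± 0.20 SE, limma adjusted p = 0.00958). Il1rl1 encodes ST2, the receptor of interleukin-33, an alarm signal to which tissue Tregs respond. It had 6.42, 5.78 and 5.92 in 4-8 and 6.81, 6.84 and 7.12 in 12-4.4m1, with all 4-8 libraries below (-0.88 ± 0.20 SE, adjusted p = 0.0429). Il12rb2 lost its call without 12-4.4m1 replicate 1 (adjusted p = 0.102) or 2 (0.0598) or 4-8 replicate 2 (0.0734). Il1rl1 kept it in 1 of 6 such fits, with values of 0.192, 0.219 and 0.142 without 12-4.4m1 replicates 1, 2 and 3 and of 0.137 and 0.175 without 4-8 replicates 2 and 3. The authors' DESeq2 table gave Il1rl1 an adjusted p of 0.0501.

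Another 2 receptors of the surface passed outside these lists. P2rx7, the ATP-gated channel that can kill T cells, had 5.70, 5.83 and 6.0 in 4-8 and 6.72, 6.89 and 6.47 in 12-4.4m1 (-0.85 ± 0.19 SE, limma adjusted p = 0.0411). Fcrl1, an Fc receptor-like protein best known from B cells, had 4.37, 4.16 and 4.28 against 5.45, 5.0 and 5.25 (-0.97 ± 0.19 SE, limma adjusted p = 0.00899). For both, all 4-8 libraries lay below all of 12-4.4m1. The 8 B cell markers with values were below the filter, with a summed FPKM of 3.15 in 4-8 and 1.34 in 12-4.4m1. Of these 8, FPKM was higher in 4-8 for 4, lower for 1 and 0 in both groups for 3. The part of B cells in the Fcrl1 result was not tested. Fcrl1 was lost without 12-4.4m1 replicate 1 (adjusted p = 0.139). P2rx7 was lost without 12-4.4m1 replicate 1 (0.236) or 2 (0.350) and without 4-8 replicate 1 (0.268) or 2 (0.0659).

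Regulators of the cytoskeleton also moved in both directions. Srgap3, which turns off the small GTPase Rac, had 5.85, 5.56 and 5.47 in 4-8 and 3.98, 4.12 and 4.19 in 12-4.4m1. The groups did not overlap, with a difference of 1.53 ± 0.19 SE (limma adjusted p = 1.04e-05), 1.47 within R and 1.51 within Treg. Its mean normalized count was under 50, and rlog values shrink low genes, so the small spreads may be understated. The authors' DESeq2 table called Srgap3 (adjusted p = 2.81e-06). Their Cuffdiff table, with FPKM of 10.4 and 0.589, did not call it. Not every gene was tested by Cuffdiff, and Srgap3 may not have been. Srgap3 lies on chromosome 6 at 112717971 to 112947266. Tiam1, an exchange factor that turns Rac on, had 6.53, 6.02 and 6.36 against 7.09, 7.40 and 6.98, with 4-8 below (-0.86 ± 0.20 SE, adjusted p = 0.0481). Sema6d, a transmembrane semaphorin, had 5.34, 6.03 and 5.85 against 7.27, 6.89 and 6.21, also without overlap (-1.05 ± 0.23 SE, adjusted p = 0.0301). These were the 3 of 30 tested small GTPase regulators, semaphorins and plexins that passed, against 0.365% of all genes tested. The list's median was -0.070.

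Of these, Srgap3 passed in all 6 fits with 1 library left out. Tiam1 passed in 1, with adjusted p of 0.210 and 0.439 without 12-4.4m1 replicates 1 and 2 and of 0.0941, 0.161 and 0.0873 without 4-8 replicates 1, 2 and 3, and Tiam1 did not pass with libraries centred on their medians (0.0532). Sema6d was lost without 12-4.4m1 replicate 1 (0.410) or 2 (0.347) or 4-8 replicate 1 (0.306). Plek encodes pleckstrin, a lipid-binding target of protein kinase C that acts on the cytoskeleton of blood cells. It had 5.29, 6.36 and 5.32 in 4-8 and 3.96, 4.74 and 3.78 in 12-4.4m1 without overlap, a difference of 1.495 ± 0.25 SE (limma adjusted p = 0.00130). Plek lost the call without 12-4.4m1 replicate 1 (0.0547), and the authors' DESeq2 table gave it a log2 fold of 0.27 (adjusted p = 0.9999) beside FPKM of 22.7 and 1.99 in their Cuffdiff table.

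Other passing genes act inside the cell. Higher in 4-8 were Slc37a2, a sugar phosphate transporter of the endoplasmic reticulum (1.09 ± 0.19 SE, limma adjusted p = 0.00251), and Tnip3, an inhibitor of NF-kB activation (1.08 ± 0.20 SE, adjusted p = 0.00651). Litaf, a protein of late endosomes and lysosomes (0.98 ± 0.19 SE, adjusted p = 0.00874), and Anxa2, a calcium-dependent membrane binder (0.98 ± 0.20 SE, adjusted p = 0.0163), were higher as well. So were Chchd10, a mitochondrial protein (1.03 ± 0.23 SE) and Phlpp1, a phosphatase of the kinase Akt (0.85 ± 0.20 SE), at adjusted p of 0.0380 and 0.0431. Fam178a, a factor of DNA repair, was lower (-0.96 ± 0.19 SE, adjusted p = 0.0124), with 5.05, 5.31 and 4.95 in 4-8 against 5.94, 6.22 and 6.04. None of these 7 genes had overlapping groups. Within R, the differences were 0.90 for Slc37a2, 0.65 for Tnip3, 0.98 for Litaf and 0.45 for Anxa2. Those of Chchd10, Phlpp1 and Fam178a within R were 0.30, 0.65 and -1.04.

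Calls of these 7 genes depended on single libraries. Without 12-4.4m1 replicate 1, limma's adjusted p was 0.0774 for Slc37a2, 0.102 for Tnip3 and Litaf, 0.207 for Anxa2 and Phlpp1, 0.438 for Chchd10 and 0.0728 for Fam178a. Without 12-4.4m1 replicate 2 it was 0.169 for Tnip3 and Fam178a, 0.105 for Litaf, 0.347 for Anxa2, 0.439 for Chchd10 and 0.350 for Phlpp1, and without replicate 3 0.0522 for Phlpp1. Leaving out 4-8 replicate 1 gave 0.0941 for Litaf, 0.172 for Chchd10, 0.192 for Phlpp1 and 0.106 for Fam178a. Leaving out 4-8 replicate 2 gave 0.0542 for Anxa2, 0.0502 for Chchd10 and 0.161 for Phlpp1, and leaving out replicate 3 gave 0.0896 for Chchd10 and 0.0778 for Fam178a. Over all 30 genes, 8 passed in each of the 6 fits with 1 library left out (Lag3, Ccl4, Nkg7, Srgap3, Ccl3, Csf1, Ccl5 and Areg), and 17 passed in 3 or fewer.

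The AP-1 letters, TGANTCA, were found before the start of 5 of the 8 lower genes with a window (Fcrl1, Cxcl10, Ccr4, P2rx7 and Tiam1) and of 2 of the 16 higher ones (Slc37a2 and Anxa2). They were in 3.87% of the 6377 tested genes and 6.87% of all 27025 windows. This pattern was noticed in these genes and was not tested. The match of each gene is shown with 10 bases either side, or as many as the window holds, with the matching letters in capitals.
Fcrl1: gtcatgaaatTGAGTCAtgccatagga
Cxcl10: ggagccttgcTGAGTCAtctccaaagt
Ccr4: tttggggaaaTGAGTCActcagctttt
P2rx7: cTGAGTCAcactgggtct
Tiam1: gcgtgtgtttTGATTCAtgccggga
Slc37a2: ccgcagatcaTGAGTCAgcgcggtggt
Anxa2: ccaagttggaTGAGTCAcccagcaggg
In the order printed, these stretches are chr3:87376237-87376263 (plus strand), chr5:92348947-92348973 (minus), chr9:114496671-114496697 (minus), chr5:122643677-122643694 (plus), chr16:89974700-89974724 (minus), chr9:37255829-37255855 (minus) and chr9:69453578-69453604 (plus) of GRCm38.p6. The letters began 140, 74, 143, 249, 15, 107 and 95 bases before the start, in that order. Areg, Sema6d and Il1rl1, also lower in 4-8, held none of the 6 sets in their windows.

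Genes that T cells induce soon after antigen contact gave no call by limma. Of 43 tested early antigen response genes, 0 passed, with a median of -0.086. Of them 2 were higher and 6 lower at an unadjusted p of 0.05, against 3.77% and 3.01% of all genes tested. Nr4a1, an orphan nuclear receptor whose transcript follows the strength of TCR signals, had 8.03, 8.60 and 8.16 in 4-8 and 9.02, 8.99 and 8.50 in 12-4.4m1. The groups overlapped, and the difference was -0.57 ± 0.20 SE (adjusted p = 0.382). Egr2, another transcription factor induced by TCR signals, differed by -0.59 ± 0.21 SE (adjusted p = 0.382), and Fos, a subunit of AP-1, by -0.55 ± 0.18 SE (adjusted p = 0.325). The 2 higher ones were Rgs16 (0.60 ± 0.20 SE) and Dusp5 (0.57 ± 0.19 SE), negative regulators of G protein and ERK signals. Of the 43, the authors' DESeq2 table called 0 and their Cuffdiff table called 1, Rgs16.

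Genes of the receptor complex gave no call by limma either. Cd3e differed by 0.23 (95% interval -0.14 to 0.60). Of 43 tested genes of the TCR complex, its signalling and its brakes 0 passed by limma. Unadjusted p was under 0.05 for 4 higher and 4 lower ones, against 3.77% and 3.01% of all genes tested. The 4 with the smallest p were Ubash3b (0.72 ± 0.22 SE, adjusted p = 0.257) and Cblb (0.61 ± 0.20 SE, adjusted p = 0.326), which restrain TCR signals, and Cd247 (0.59 ± 0.20 SE) and Trat1 (-0.55 ± 0.19 SE), which belong to the complex. Of the 43, the authors' DESeq2 table called 0 and their Cuffdiff table called 2, Ubash3b and Cblb. Of 20 tested genes of NF-kB 0 passed by limma or in the authors' 2 tables. An unadjusted p under 0.05 was found for 0 of them, against 3.77% higher and 3.01% lower of all genes tested. Among 18 costimulatory receptors 0 passed by limma. Without adjustment 4 of these were higher and 2 lower, against 3.77% and 3.01% of all genes tested. The first by p was Cd27 (0.73 ± 0.20 SE, limma adjusted p = 0.150), a receptor of the TNF family. It was the 1 costimulatory gene called by Cuffdiff, with 0 called by DESeq2.

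**Figure D4:**
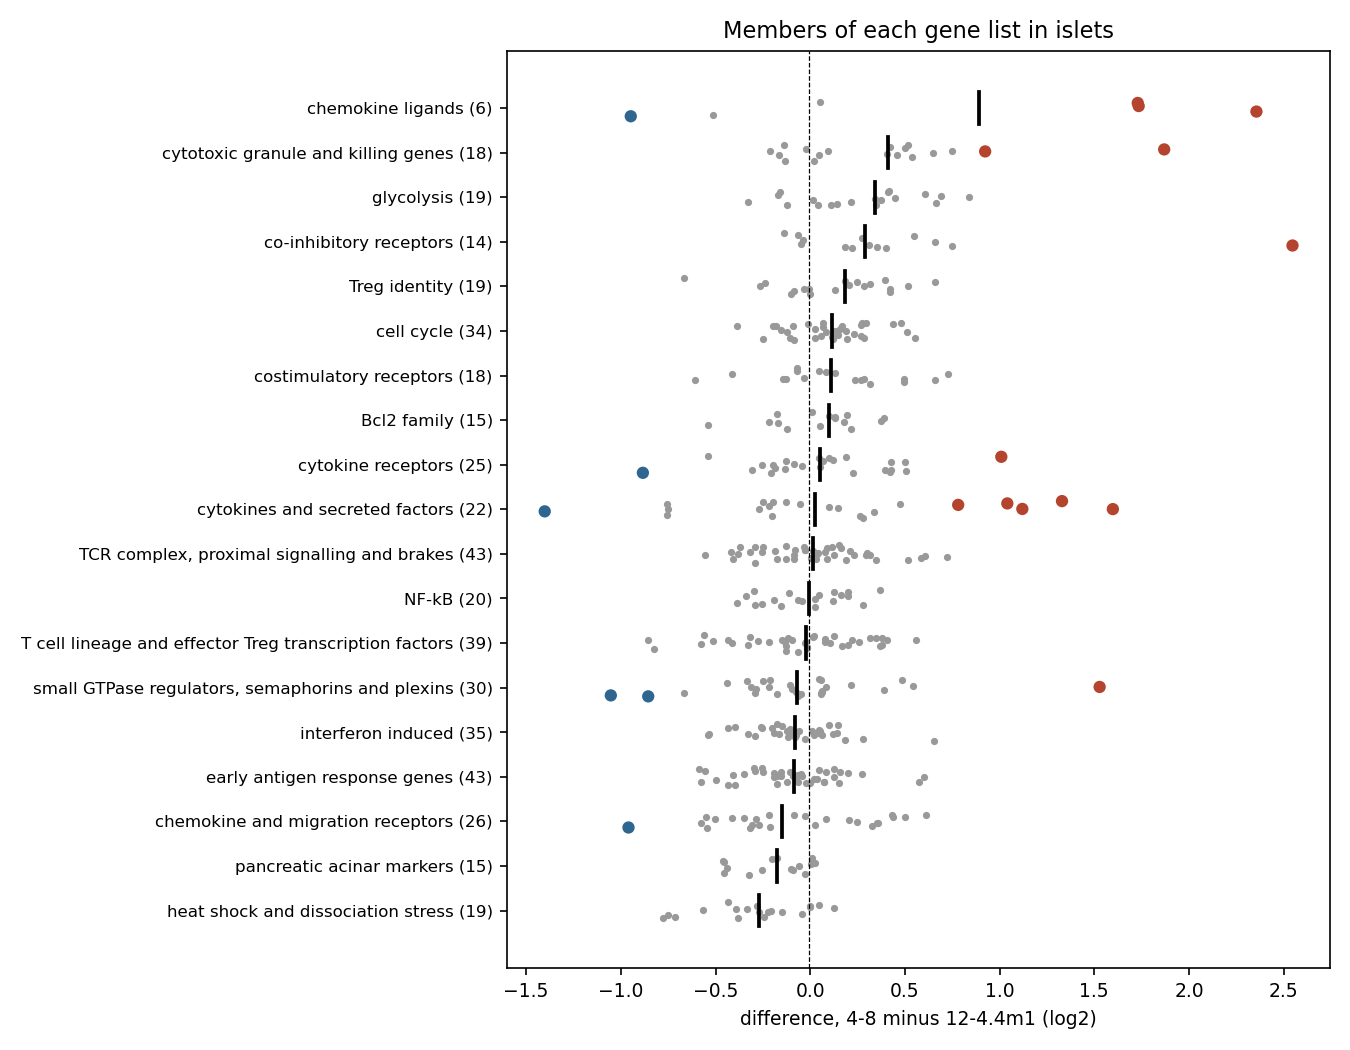
Difference between 4-8 and 12-4.4m1 (horizontal axis, log2) of every tested member of 18 functional lists and of the pancreatic acinar markers, with the number tested in brackets. Black bars are medians, the dashed line is the median of all genes tested (-0.0040), red and blue points passed, and medians run from -0.27 (heat shock) to 0.89 (chemokine ligands).

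Transcription factors of T cell lineages gave no call either: of 39 tested 0 passed by limma (median -0.021) and 0 were called in the authors' tables. At an unadjusted p of 0.05, 1 of them was higher and 7 lower, against 3.77% and 3.01% of all genes tested. The lower ones included Rora (-0.86 ± 0.22 SE, adjusted p = 0.101), which has roles in type 2 and tissue lymphocytes, and Tcf7 and Lef1, the paired factors of naive and memory T cells. Tcf7 had 3.66, 4.18 and 3.54 in 4-8 and 5.35, 4.90 and 3.62 in 12-4.4m1, so that the 2 Treg-titled libraries of 12-4.4m1 were high and the R-titled one lay among those of 4-8. Its difference was -0.83 ± 0.27 SE (adjusted p = 0.305), -0.015 within R and -0.94 within Treg. Lef1 differed by -0.58 ± 0.19 SE (adjusted p = 0.316) without overlap. Tbx21, the type 1 factor that drives Ifng, differed by 0.20 (95% interval -0.23 to 0.63), and Gata3, the type 2 factor, by -0.015 (-0.40 to 0.37).

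Among programmes of metabolism and stress, 0 genes passed by limma, and in the authors' DESeq2 and Cuffdiff tables only heat shock genes were called (3 and 2). Heat shock and dissociation stress genes had a median of -0.27 over 19 tested, -0.31 within R and -0.26 within Treg. At an unadjusted p of 0.05, 0 of them were higher and 7 lower, against 3.77% and 3.01% of all genes tested. Hspa1a, the inducible Hsp70 chaperone, had 8.56, 8.37 and 8.72 in 4-8 and 9.07, 9.54 and 9.37 in 12-4.4m1 without overlap. Its difference of -0.78 ± 0.19 SE came to an adjusted p of 0.0722, and its near copy Hspa1b, whose reads may be shared, to -0.75 ± 0.19 SE and 0.0829. The authors' DESeq2 table called Hspa1a, Hspa1b and Hsph1 lower in 4-8, among 7 genes it called that limma did not. The other four were Tigit, Twsg1, Hdac7 and Sdf4, higher in 4-8 and at limma adjusted p of 0.0829, 0.0829, 0.0847 and 0.0969.

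Glycolysis genes had a median of 0.34 over 19 tested (0.020 within R and 0.36 within Treg), with 0 called by limma. At an unadjusted p of 0.05, 7 of them were higher and 0 lower, against 3.77% and 3.01% of all genes tested. Slc2a1, the glucose importer Glut1, differed by 0.69 ± 0.20 SE (adjusted p = 0.234), 0.67 within R and 0.68 within Treg. Tpi1, a middle enzyme of the pathway, differed by 0.84 ± 0.25 SE (adjusted p = 0.249), 0.16 within R and 1.07 within Treg. Cell cycle genes had a median of 0.12 over 34 tested and interferon-induced genes one of -0.082 over 35, with 0 passing in both. The cell cycle median was 0.016 within R and -0.038 within Treg, and that of interferon-induced genes -0.023 and -0.13. Without adjustment, 4 cell cycle genes were higher and 0 lower, and 1 interferon-induced gene was higher and 3 lower. Of all genes tested, 3.77% were higher and 3.01% lower without adjustment. The Bcl2 family had a median of 0.10 over 15 tested (0.11 within both R and Treg) and 0 passing. It had 1 gene in each direction without adjustment, beside those shares of all genes tested. The authors' tables called 0 genes of these 3 lists.

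The same receptors were compared in Tregs of the spleen, in a table normalized on its own, so values are set side by side and the difference between tissues was not tested. In spleen 39 of 9108 genes passed (0.428%). Of the 30 islet genes 27 were measured there, and 10 passed in the same direction: Lag3, Ccl4, Nkg7, Csf1, Ccl5, Pglyrp1, Fcrl1, Ccr4, Sema6d and Tiam1. The rlog estimate, which is shrunk towards 0 at low counts, was smaller in spleen for 26 of the 27. By the authors' FPKM the fold was larger in spleen for 3 of the 27, Areg, Il12rb2 and Ccr4. Lag3 had a spleen difference of 0.71 ± 0.13 SE (limma adjusted p = 0.00669) beside 2.55 in islets, at FPKM of 38.2 and 10.7 in spleen. Srgap3 had 0.077 ± 0.093 SE (adjusted p = 0.906) beside 1.53, and Areg -0.37 ± 0.10 SE (adjusted p = 0.155) beside -1.40. The FPKM of Areg in spleen was 4.38 in 4-8 and 22.5 in 12-4.4m1, 5.14-fold lower in 4-8, beside 4.21-fold in islets. Il12rb2 had 0.42 ± 0.11 SE (adjusted p = 0.0959) beside 1.01, at spleen FPKM of 7.65 and 1.23, 6.24-fold beside 5.39-fold in islets. Ccr4 was the exception on the rlog scale, with -1.09 ± 0.12 SE (adjusted p = 1.67e-05) and -0.96 in islets. Slc37a2, Il10 and Spp1 were below the filter in spleen. Xist passed there too (-1.73 ± 0.38 SE, limma adjusted p = 0.0394), though its groups overlapped. Its values were 7.33, 8.39 and 9.46 in 4-8 and 8.70, 10.92 and 10.74 in 12-4.4m1. Y-linked Ddx3y differed by 0.49 ± 0.19 SE (adjusted p = 0.429). The part of this in the other spleen differences was not tested.

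**Figure D5:**
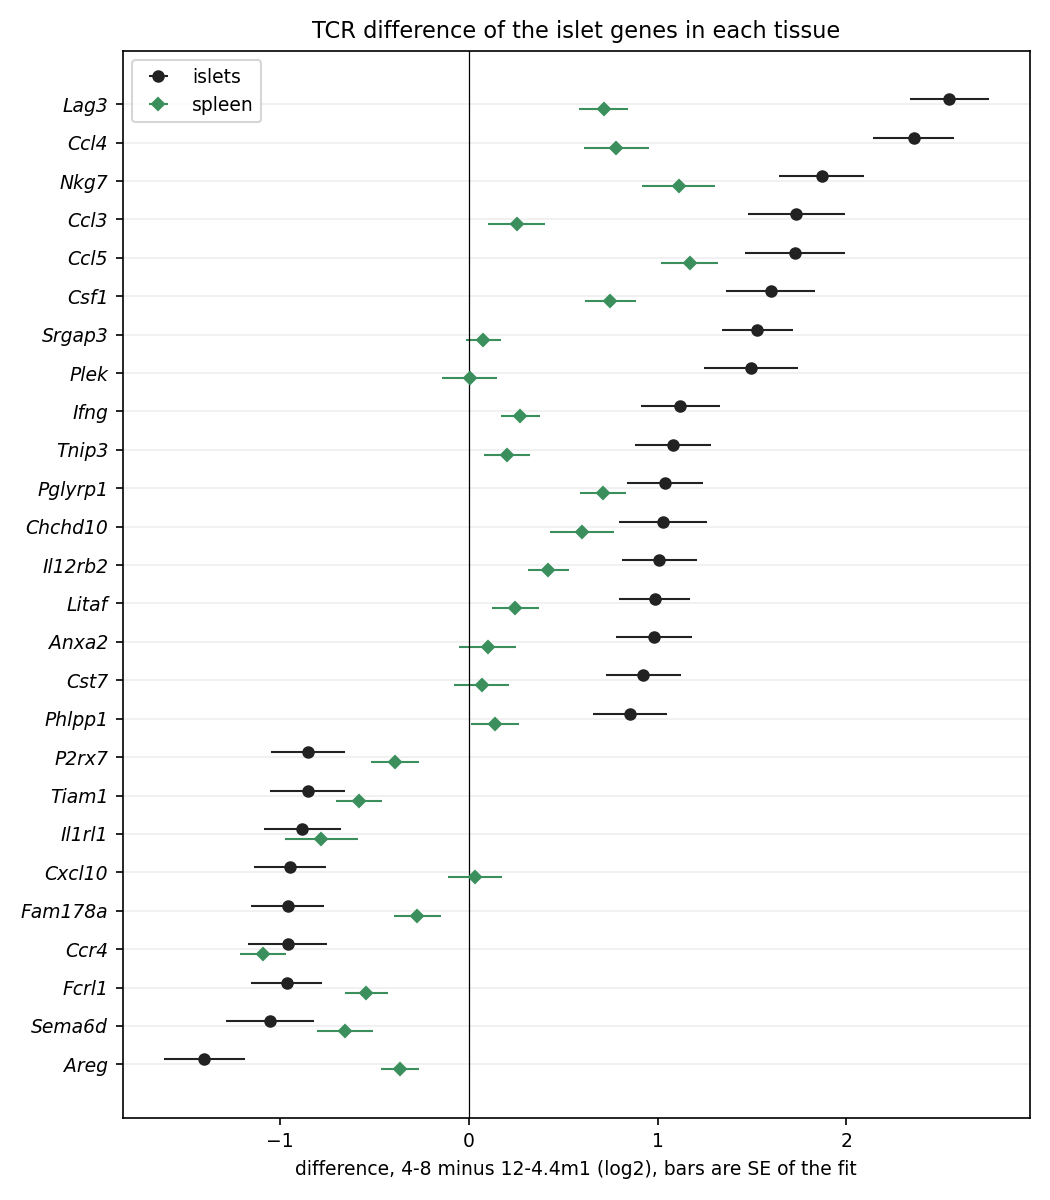
Difference between 4-8 and 12-4.4m1 (horizontal axis, log2, bars are the SE of the fit) in islets (circles) and spleen (diamonds) for 26 of the 27 islet genes measured in both. The 2 tables were normalized separately; spleen rlog estimates, shrunk at low counts, are nearer 0 for every gene shown except Ccr4 (-1.09 beside -0.96), while FPKM folds of Areg and Il12rb2 are larger in spleen too.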

How the data were processed

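Sorted Tregs were lysed in Triton X-100 and their cDNA was amplified and made into Nextera XT libraries, per the labels' protocols. The submitters' processing notes name STAR 1.1.0, TopHat 1.0.0, DESeq2 1.1.0, Cufflinks and DESeq, on mm10 (GRCm38), with roles not given. The authors deposited rlog (log2) values per library, DESeq2 results (mean normalized count as a signal, Wald score, log2 fold change, p-value) and Cuffdiff tables with 1 FPKM value per group and a q-value. Rlog values shrink low genes, which understates their differences, and hold no total count, so depth per library is unknown.

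The 6 islet libraries were fitted in limma 3.58.1 (R 4.3.3; lmFit, eBayes with trend, 2-sided, Benjamini-Hochberg over 8212 genes with a mean normalized count of at least 10), after a test on simulated data. The rlog table listed 24421 entries, of which 4 of repeated symbols were left out. Of its columns, 1 of 4-8 matched no title and was called replicate 3 by elimination; its deviations correlated at 0.992 with that replicate in the tissue table, against -0.332 and -0.697 for the others (across 8212 genes, which are not independent). The labels do not say that a replicate number marks a single mouse, so numbers were not used as pairs. Same-numbered libraries of the 2 groups correlated at -0.039, 0.127 and 0.209 in their deviations from group means. With 3 libraries a group and 2 title styles among them, these values cannot show whether numbers mark pairs.

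Genes named are those that passed, with 6 values each for the 10 largest differences in a direction, the 10 next by p in part, and up to 4 members of each of 18 functional and 9 marker lists, with 14 genes always looked up. Some list members were named outside this rule after their values were seen. Of the 30 genes that passed, 1 is counted but not reported here. The members and lists were chosen with earlier results of these data known. Alternatives changed the filter, scaling, variance model, title style, block and libraries. Positions are from GENCODE vM21.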

Additional observations from a re-analysis of the deposited data

Results flagged for a closer look

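In 1 interferon pathway gene the libraries of the receptors were separate in both tissues but in opposite directions, and the difference between tissues was not tested. Such separation was common in islets, at 11.9% of all genes tested and 14.3% of the 35 interferon-induced ones. No share was taken for spleen or for opposite directions, so the pattern is a description of this gene only. Irf9, a subunit of the interferon-activated factor ISGF3, differed by -0.54 ± 0.20 SE in islets (limma adjusted p = 0.461), with 5.93, 6.08 and 5.56 in 4-8 and 6.59, 6.19 and 6.41 in 12-4.4m1. In spleen it differed by 0.20 ± 0.12 SE (adjusted p = 0.736), with 7.53, 7.70 and 7.45 against 7.40, 7.28 and 7.39, so it passed in neither tissue.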

How the results depend on the processing

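The number of genes that passed was 30. It was 15 at a mean normalized count of at least 50 (where 23 of the 30 were tested), 52 with title style in the fit, 16 without the libraries titled Treg (8 of the 30 among them) and 57 in the authors' Cuffdiff table. Leaving out 1 library gave 9 (without 12-4.4m1 replicate 1) to 44 (without 12-4.4m1 replicate 3), and 11 without 12-4.4m1 replicate 2. It was 37 without a filter, 29 without the trend, 24 with robust estimation, 29 with median centring, 23 with quantile normalization and 29 in the authors' DESeq2 table. A replicate block gave 53 genes over replicates 1 and 2 and 37 over 3 pairs, though the labels do not say that numbers mark pairs. Without the libraries titled Treg, genes that had not passed changed sign: Tnfrsf9 to -0.18, Eno3 to -0.15, Cdkn1a to -0.32, Bcl2a1d to -0.033, Il2ra to -0.030, Tnfrsf18 to -0.064, Gata3 to 0.13 and Tbx21 to -0.17. Foxp3, near 0, became 0.0025 with median centring, 0.11 with the block over replicates 1 and 2, 0.022 with title style and 0.0069 in the Cuffdiff table. Cd4 became 0.051 with title style and 0.0092 in the Cuffdiff table. With 1 library left out, Foxp3 ran from -0.12 to 0.058, Gata3 from -0.081 to 0.10 and Cd4 from -0.16 to 0.12. Under all alternatives together, values of the 30 genes kept direction and side 395 times and lost the threshold with direction kept 138 times. Where an alternative drops genes or libraries, fewer were tested by construction; otherwise the cause was not tested. With 3 libraries a group, a median SE of 0.193 and unknown depth, small differences were not detectable.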
